A study of Mus musculus with 114 samples.

Results

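These are 100 genes of perigonadal adipocytes whose expression changed between 8 and 34 weeks on a chow diet while chow-fed and high fat-fed mice differed little at 8 and at 20 weeks. The adipocytes, recovered as the floating fraction of collagenase-treated fat pads, came from male C57BL/6J mice that received a high fat diet (HFD) or a control chow diet (CD) from 6 weeks of age. Libraries of 38 mice were analysed, with 6 mice in each of CD 8wk, HFD 8wk, CD 20wk, HFD 20wk and HFD 34wk and 8 in CD 34wk, and every mouse was fasted before harvest. The methods name a pair of control diet products without saying which mouse received which. Values are CPM, the reads of a gene per 1000000 reads on all listed genes of that mouse, on 9275711 to 15480388 reads per mouse (9275711 to 12433584 in CD 34wk and 10714545 to 12271651 in HFD 34wk). Both diets were harvested at the same 3 times, and between these times age, time on diet, harvest and library preparation cannot be told apart.

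The genes were taken from the 10343 of 29132 listed genes with a mean log2(CPM + 1) above 2 over all 38 mice, leaving out symbols that start with Nduf, Mrp, Rpl or Rps. A gene had to differ by less than 0.25 on the log2 scale between the HFD and CD means at 8 weeks and again at 20 weeks, which 2342 genes did, and the 100 with the largest change from CD 8wk to CD 34wk were kept. They comprise 30 genes that were higher at CD 34wk, called rises, and 70 that were lower, called falls. The chow change was 0.70 to 1.38 in the rises (median 0.76) and -1.70 to -0.70 in the falls (median -0.81) on the log2 scale, and these values chose the genes, so they are a description and carry no test. At the border of the list stood Atp2a2 (-0.70), Hsp90aa1 (-0.70) and Scand1 (0.70), with Abhd2 (-0.70), Psmg3 (0.70) and Mga (-0.70) just outside. Atp2a2, Plin5 and Pllp lay just inside the limit on the diet difference at 8 weeks (-0.25, -0.25 and 0.25), and Atp5e, Xrn1 and Peg3 just outside it (0.25, -0.25 and 0.25). Psenen, Atp5l and Sdhaf1 lay just inside the limit at 20 weeks (0.25, -0.24 and -0.23), with Smad7, Rel and Atp13a3 outside (0.25, 0.25 and 0.26). Membership depended on the scaling of the libraries: 24 of the 100 genes were chosen again by the same rule after scaling by trimmed mean of M values (TMM), and 31 after median-of-ratios scaling.

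The change was not particular to chow. The HFD 34wk mice entered the choice only through the filter on the mean over all mice, and the same 100 genes were chosen with that filter over the other 32 mice. Relative to HFD 20wk, the HFD 34wk mice were higher in 29 of 30 rises and lower in 68 of 70 falls, all but Pllp, Crem and Il13ra2. Of all 10343 genes tested, 5870 were higher and 4473 lower in that comparison. Among the 2342 genes within the diet limits, 1491 were higher and 851 lower. The 100 genes are therefore described here as genes that changed by 34 weeks, and not as genes of chow-fed mice. Their earlier diet differences were held under 0.25 but were not absent. HFD 8wk stood above CD 8wk in 30 of 30 rises (median 0.15) and below it in 57 of 70 falls (median -0.16). That is mostly the direction of the chow change, and both differences use the CD 8wk mean. At 20 weeks HFD stood above CD in 13 of 30 rises and below it in 30 of 70 falls.

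White adipocytes store triglyceride, take up glucose in response to insulin and secrete peptides that act on vessels and other tissues. Their mitochondria oxidise fuels through the respiratory chain and ATP synthase, and their protein turnover runs through ubiquitin ligases and the proteasome. They also carry a circadian clock, in which PER proteins repress the factors that drive their own genes through E-box sequences. Surface receptors of the BMP and activin families, the Hippo effectors and the actin-linked adaptor proteins relay signals from the matrix and from neighbouring cells.

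The motif content of the promoters, which the rule did not use, is described here by counts and without a test. The windows run from 250 bases before to 50 bases after the first listed transcript start of each gene, are from RefSeq on GRCm38.p6, and were found for 25 of 30 rises and 59 of 70 falls. Both strands were searched for the exact letters of 9 motifs. The E-box CACGTG occurred in 8 of 25 rises (32%), in 3 of 59 falls (5.08%) and in 10.9% of the 8287 tested genes with a window, against 7.24% of all 27025 windows. The rises that held it were Per1, Atp5l, Atp5g1, A430005L14Rik, Gadd45b, Eif3k, Timm10 and Acy1, and the falls were Btbd7, Pogk and Pkn2. The ETS site CCGGAAG occurred in 32% of rises, 10.2% of falls, 19.1% of tested genes and 9.12% of all windows. The CCAAT box CCAAT occurred in 60% of rises, 37.3% of falls, 38.1% of tested genes and 37.9% of all windows. The GC box GGGCGG had the opposite order, with 56% of rises, 79.7% of falls, 66.5% of tested genes and 35.9% of all windows. The median GC content of the windows was likewise lowest in rises (60%) and highest in falls (64.7%), with 61.3% in tested genes. The other motifs were rarer. The TATA box TATAAA was found in 8% of rises, 5.08% of falls, 6.79% of tested genes and 14.2% of all windows. The cyclic AMP response element TGACGTCA was found in 4%, 8.47%, 3.35% and 1.88% in the same order, the AP-1 site TGANTCA in 8%, 3.39%, 4.95% and 7.93%, the heat shock element core GAANNTTC in 8%, 1.69%, 5.51% and 7.95%, and the C/EBP site TTGCGCAA in 0%, 1.69%, 0.314% and 0.185%. These shares are descriptions of letters in a window, and binding of any factor was not measured.

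The windows of 4 rises that hold an E-box and of 2 falls that do not are shown because they stand for this contrast. Levels of Per1, Gadd45b, Adm and Bmpr2 are given further on, and for Atp5l and Timm10 only HFD differences. Capitals mark the motif matches, on either strand. The Per1 window is chr11:69098699-69098998 on the plus strand and holds 1 E-box, 3 CCAAT boxes and 1 GC box. It lies inside the listed span of the gene, chr11:69095108-69109965, and the upstream end of that span was not searched. The Atp5l window is chr9:44920693-44920992 on the minus strand and holds 1 E-box, 2 ETS sites, 1 CCAAT box and 1 TATA box. The Timm10 window is chr2:84826771-84827070 on the plus strand and holds 1 E-box and 3 ETS matches, of which 2 overlap as the same letters read on both strands. The Gadd45b window is chr10:80929841-80930140 on the plus strand and holds 1 E-box, 2 CCAAT boxes, 1 GC box and 1 TATA box. Those of the falls Adm (chr7:110627407-110627706, plus strand) and Bmpr2 (chr1:59764029-59764328, plus strand) hold 1 GC box each and no other motif searched.
Per1: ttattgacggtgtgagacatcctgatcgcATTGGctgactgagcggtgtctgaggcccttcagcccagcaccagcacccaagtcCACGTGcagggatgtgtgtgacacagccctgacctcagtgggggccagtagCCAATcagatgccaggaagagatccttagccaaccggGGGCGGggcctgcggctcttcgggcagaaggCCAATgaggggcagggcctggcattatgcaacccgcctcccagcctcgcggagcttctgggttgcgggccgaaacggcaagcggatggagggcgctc
Atp5l: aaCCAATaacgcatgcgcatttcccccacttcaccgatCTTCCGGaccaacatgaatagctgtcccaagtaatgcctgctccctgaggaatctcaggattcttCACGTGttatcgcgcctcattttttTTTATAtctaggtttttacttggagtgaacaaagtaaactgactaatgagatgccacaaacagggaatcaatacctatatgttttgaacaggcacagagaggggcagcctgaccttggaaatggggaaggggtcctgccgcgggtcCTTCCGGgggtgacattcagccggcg
Timm10: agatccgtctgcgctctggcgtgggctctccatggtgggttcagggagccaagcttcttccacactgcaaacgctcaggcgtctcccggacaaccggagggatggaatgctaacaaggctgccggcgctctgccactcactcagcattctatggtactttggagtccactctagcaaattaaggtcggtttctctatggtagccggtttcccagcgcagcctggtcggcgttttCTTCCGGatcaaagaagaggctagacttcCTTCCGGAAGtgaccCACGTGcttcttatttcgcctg
Gadd45b: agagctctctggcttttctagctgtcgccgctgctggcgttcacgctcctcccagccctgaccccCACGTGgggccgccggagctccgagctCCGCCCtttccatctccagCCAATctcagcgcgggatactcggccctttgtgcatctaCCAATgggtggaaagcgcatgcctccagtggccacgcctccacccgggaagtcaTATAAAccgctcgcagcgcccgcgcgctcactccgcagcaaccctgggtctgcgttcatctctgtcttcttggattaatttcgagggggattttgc
Adm: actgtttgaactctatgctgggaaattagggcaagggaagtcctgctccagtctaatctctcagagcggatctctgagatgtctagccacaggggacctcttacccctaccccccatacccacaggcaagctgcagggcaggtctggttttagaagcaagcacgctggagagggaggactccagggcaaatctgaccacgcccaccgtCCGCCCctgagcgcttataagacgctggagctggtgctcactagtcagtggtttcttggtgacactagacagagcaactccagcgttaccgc
Bmpr2: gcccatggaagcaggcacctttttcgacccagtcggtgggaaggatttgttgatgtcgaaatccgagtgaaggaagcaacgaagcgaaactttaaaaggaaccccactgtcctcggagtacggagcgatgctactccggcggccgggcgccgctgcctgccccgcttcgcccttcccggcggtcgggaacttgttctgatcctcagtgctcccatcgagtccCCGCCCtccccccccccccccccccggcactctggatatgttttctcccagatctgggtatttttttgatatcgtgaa

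The question that can be tested is whether the genes also changed late in HFD mice, since no difference between these groups was used by the rule. The test is not wholly apart from the rule, because the 20-week diet limit ties HFD 20wk to CD 20wk and both groups entered the filter on the mean. In HFD 34wk against HFD 20wk, 20 of the 30 rises were called higher and 49 of the 70 falls were called lower, none was called in the direction opposite to chow, and 31 were not called. Over all 10343 genes tested, 30.2% were called, 17.8% as higher and 12.5% as lower, so that the members' shares (66.7% of rises and 70% of falls) stood above the background of the same direction. Among the 2342 genes that passed the diet limits, 26.3% were called higher and 8.54% lower. The median log2 difference was 0.42 in the rises and -0.51 in the falls, against 0.06 over all genes tested. All 6 HFD 34wk mice lay above all 6 HFD 20wk mice in 10 of 30 rises (7.63% of all genes tested), and below them in 13 of 70 falls (4.42% of all genes tested).

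The test was limma on log2(CPM + 1) with the 6 groups fitted together, and an adjusted p under 0.05 over all genes tested is a call. Each SE rests on 1 spread shared by the 6 groups, not on that of the 2 groups compared. Mice at 34 weeks differed more than others, so the SE can understate the spread there. With the 2 HFD groups fitted alone, 19 rises were called higher and 45 falls lower. The split of all calls moved with the scaling, from 1837 higher and 1289 lower as deposited to 1378 and 1500 after TMM and 1146 and 1615 after median-of-ratios scaling, and in the members these scalings called 15 of 30 rises each and 51 and 53 of 70 falls. TMM scaling also moved the median chow change of all genes tested by -0.11, from 0.13 to 0.02, and the chow values given here are relative to the deposited CPM.

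**Figure D1:**
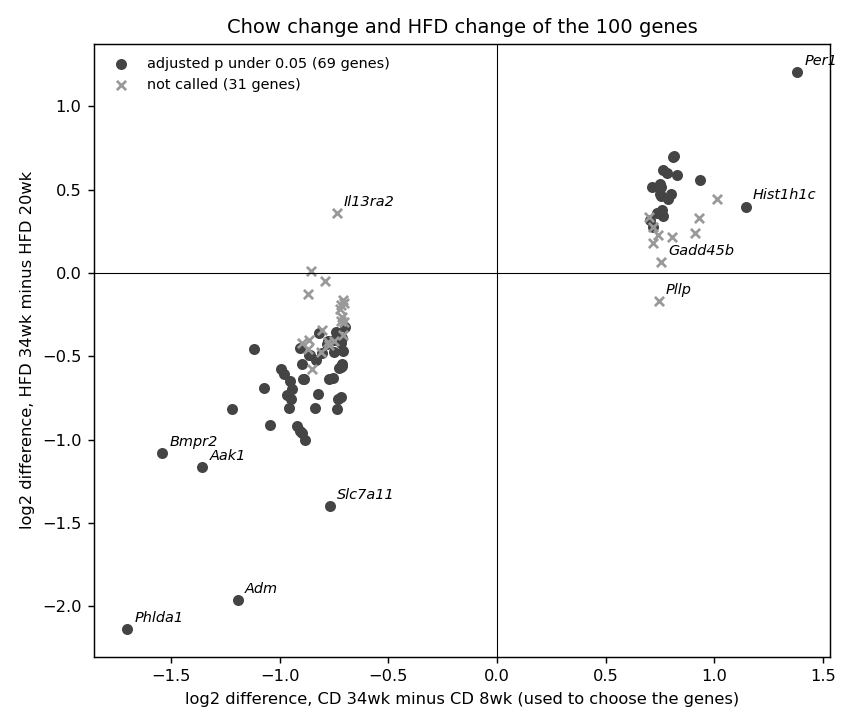
Log2 difference between CD 34wk and CD 8wk (x axis, the value that chose the genes) against that between HFD 34wk and HFD 20wk (y axis) for the 100 genes, 1 mark per gene. Filled circles are the 69 called genes and crosses the 31 others, and every filled circle has the same sign on both axes.

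Per1, a repressor of the circadian clock that glucocorticoids also induce, was the rise with the largest chow change (1.38, chr11:69095108-69109965 on GRCm38). In CD mice Per1 ran from 29.96 to 54.5 CPM (median 40.7) at 8 weeks, from 39.6 to 77.6 (median 57.6) at 20 weeks and from 78.3 to 135 (median 115) at 34 weeks. In HFD mice Per1 ran from 27.6 to 64.2 CPM (median 44.96), 29.7 to 80.5 (median 51.5) and 53.7 to 186 (median 153) at the same times. Every CD 34wk mouse stood above every CD 8wk and CD 20wk mouse, whereas 2 of the 6 HFD 34wk mice stood within the range of HFD 20wk. The HFD difference was 1.21 ± 0.25 (SE, adjusted p = 0.000892), a 2.31-fold rise. The log2 SD between mice was 0.73 in HFD 34wk and 0.52 in HFD 20wk. With mice weighted by their quality the HFD difference was 0.61 and not called. Of the 20 clock genes measured, Per1 was the only member. In HFD 34wk against HFD 20wk, 2 were called higher (10%, against 17.8% of all genes tested) and 5 lower (25%, against 12.5%). Per1 was also the only member among 21 tested glucocorticoid response genes. Of these, 3 were called higher (14.3%) and 6 lower (28.6%) in the same comparison. Their median was -0.35 in that comparison and -0.67 from CD 8wk to CD 34wk, against the direction of Per1.

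Hist1h1c (chr13:23738807-23739531), which encodes a linker histone, had the next largest chow rise among named genes (1.14). In CD mice Hist1h1c ran from 74.1 to 99.7 CPM (median 80.3) at 8 weeks, from 76.8 to 149.7 (median 89.8) at 20 weeks and from 132 to 280.2 (median 170.2) at 34 weeks. In HFD mice Hist1h1c ran from 76.8 to 99.5 CPM (median 95.9), 87.6 to 119 (median 113) and 115 to 175 (median 144) at the same times. The CD 34wk mice did not overlap with CD 8wk, and the HFD 34wk mice did not overlap with HFD 8wk but did with HFD 20wk. The HFD difference of 0.40 ± 0.15 (SE, adjusted p = 0.0464) stood close to the threshold and was lost under TMM, median-of-ratios and other settings. The libraries were made from polyadenylated RNA, and most histone messages lack a poly(A) tail, so the level refers to the polyadenylated part of the message. Of 15 histone genes tested, 3 were called higher (20%, against 17.8% of all genes tested) and none lower.

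The rises held several small proteins of the mitochondrion. Cox5a, a subunit of cytochrome c oxidase, had a chow change of 0.93. In CD mice Cox5a ran from 96.4 to 110.3 CPM (median 99.9) at 8 weeks, from 110.1 to 141 (median 117) at 20 weeks and from 120.2 to 320.0 (median 217) at 34 weeks. In HFD mice Cox5a ran from 92.4 to 124 CPM (median 111), 95.1 to 117 (median 113) and 99.8 to 184 (median 150.4) at the same times. All CD 34wk mice stood above all CD 8wk mice, but the HFD groups overlapped and the difference of 0.33 ± 0.16 (SE, adjusted p = 0.122) did not pass the test. Atp5g1, the proton-carrying subunit c of ATP synthase, changed by 0.79 on chow. In CD mice Atp5g1 ran from 31.3 to 40.04 CPM (median 34.6) at 8 weeks, from 36.04 to 48.8 (median 43.3) at 20 weeks and from 50.4 to 73.4 (median 59.98) at 34 weeks. In HFD mice Atp5g1 ran from 31.8 to 39.6 CPM (median 36.6), 37.5 to 46.5 (median 40.4) and 47.4 to 66.9 (median 55.5) at the same times. Both 34-week groups stood entirely above the 8- and 20-week groups of their diet, and the HFD difference was 0.44 ± 0.09 (SE, adjusted p = 0.000646). Atp5l, another ATP synthase subunit, differed in HFD mice by 0.22, adjusted p = 0.241 and Etfb, which passes electrons from fatty acid oxidation to the chain, by 0.23, adjusted p = 0.301. Timm10, a chaperone of import across the intermembrane space, rose by 0.47, adjusted p = 0.0268, as did Sdhaf1, an assembly factor of complex II (0.53, adjusted p = 0.0129), Slirp, an RNA-binding protein that stabilises mitochondrial messages (0.34, adjusted p = 0.0383), and Ccdc51, a protein of the inner membrane (0.59, adjusted p = 0.00259). With the trend on summed exon length removed, Timm10 (0.21, adjusted p = 0.203), Sdhaf1 (0.37, adjusted p = 0.0701) and Slirp (0.21, adjusted p = 0.209) were not called, while Ccdc51 was (0.36, adjusted p = 0.0466). The mitochondrial carrier Slc25a35 differed by 0.24, adjusted p = 0.327. In the 51 tested genes of respiratory complexes II to V, 3 were members and none was called lower. Only 5 were called higher (9.80%), a smaller share than the 17.8% of all genes tested. In the 51 import and chaperone genes, 1 was a member, 16 were called higher (31.4%) and 2 lower (3.92%, against 12.5% of all genes tested).

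Genes of protein synthesis and breakdown were also among the rises. Fau, which encodes a ubiquitin-like protein fused to ribosomal protein S30 and is not excluded by its symbol, changed by 0.94 on chow. In CD mice Fau ran from 138 to 164 CPM (median 151) at 8 weeks, from 167 to 194 (median 189) at 20 weeks and from 187 to 542 (median 268) at 34 weeks. In HFD mice Fau ran from 163 to 199 CPM (median 180.0), 198 to 265 (median 204) and 246 to 478 (median 306) at the same times. The CD 34wk mice stood above all CD 8wk mice, and the HFD difference was 0.55 ± 0.16 (SE, adjusted p = 0.0106). Eif3k, a subunit of the translation initiation factor eIF3, changed by 0.75 on chow. In CD mice Eif3k ran from 68.2 to 80.3 CPM (median 69.6) at 8 weeks, from 78.2 to 87.9 (median 82.02) at 20 weeks and from 90.1 to 203 (median 115) at 34 weeks. In HFD mice Eif3k ran from 76.8 to 92.5 CPM (median 82.5), 90.6 to 102 (median 93.6) and 103 to 176 (median 129) at the same times. The HFD 34wk mice stood above every HFD 8wk and HFD 20wk mouse, a difference of 0.46 ± 0.12 (SE, adjusted p = 0.00595). Psma5, an alpha subunit of the proteasome core, changed by 0.74. In CD mice Psma5 ran from 57.3 to 72.7 CPM (median 64.1) at 8 weeks, from 66.99 to 79.5 (median 71.6) at 20 weeks and from 83.7 to 137 (median 109) at 34 weeks. In HFD mice Psma5 ran from 55.3 to 83.4 CPM (median 72.01), 64.9 to 78.8 (median 72.2) and 81.4 to 102 (median 94.02) at the same times. Psma5 rose by 0.36 ± 0.10 (SE, adjusted p = 0.00801) in HFD mice without overlap, and the beta subunit Psmb3 by 0.28, adjusted p = 0.0469. Neither was called with the trend on summed exon length removed, a step described further on, where Psma5 was at 0.12 (adjusted p = 0.297) and Psmb3 at 0.10 (adjusted p = 0.472). Of the 46 proteasome genes tested, 28 were called higher in HFD 34wk and none lower (60.9% higher, against 17.8% of all genes), although only Psma5 and Psmb3 were members. The median summed exon length of these 46 genes was 2814 bases, against 4641 over all genes tested. Their share was not counted again with the length trend removed. Of 65 translation factors, 21 were called higher (32.3%) and 8 lower (12.3%, against 12.5% of all genes tested).

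Among the other rises, Rpp25l, which resembles a subunit of RNase P, rose by 0.70, adjusted p = 0.00334, Scnm1, a splicing factor, by 0.60, adjusted p = 0.000517, Pmf1, a kinetochore protein, by 0.47, adjusted p = 0.00263, and Psenen, a subunit of gamma-secretase, by 0.32, adjusted p = 0.0211. Scand1 differed by 0.34, adjusted p = 0.201. Pllp, a membrane protein first known from myelin, was the exception in direction: it differed by -0.17, adjusted p = 0.556 in HFD mice, and HFD 34wk stood 0.85 below CD 34wk on the log2 scale. The predicted genes among the rises gave 2 calls of 4, 1110038F14Rik (0.70, adjusted p = 0.000409) and A430005L14Rik (0.62, adjusted p = 0.00246), whereas Gm10076 and 2310061I04Rik were not called. Fau, Atp5g1 and the fall Hsp90aa1 have near-identical copies elsewhere in the genome, and their counts are uncertain to the extent that reads were shared with these.

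Gadd45b, a growth arrest gene induced by stress, did not follow the pattern of the other rises. In CD mice Gadd45b ran from 52.3 to 114 CPM (median 65.8) at 8 weeks, from 189.6 to 331 (median 232) at 20 weeks and from 29.8 to 289 (median 141) at 34 weeks. In HFD mice Gadd45b ran from 61.1 to 117 CPM (median 86.00), 193 to 281 (median 227) and 169 to 363 (median 232) at the same times. Its highest CD values fell at 20 weeks, where all mice stood above all CD 8wk mice, and the CD 34wk median lay between those of CD 8wk and CD 20wk, with overlap. Gadd45b differed by 0.06 ± 0.30 (SE, adjusted p = 0.893) between HFD 34wk and HFD 20wk. Of 41 immediate early genes tested, Gadd45b was the only member. In the same comparison 2 of the 41 were called higher (4.88%, against 17.8% of all genes tested) and 9 lower (21.95%, against 12.5%).

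**Figure D2:**
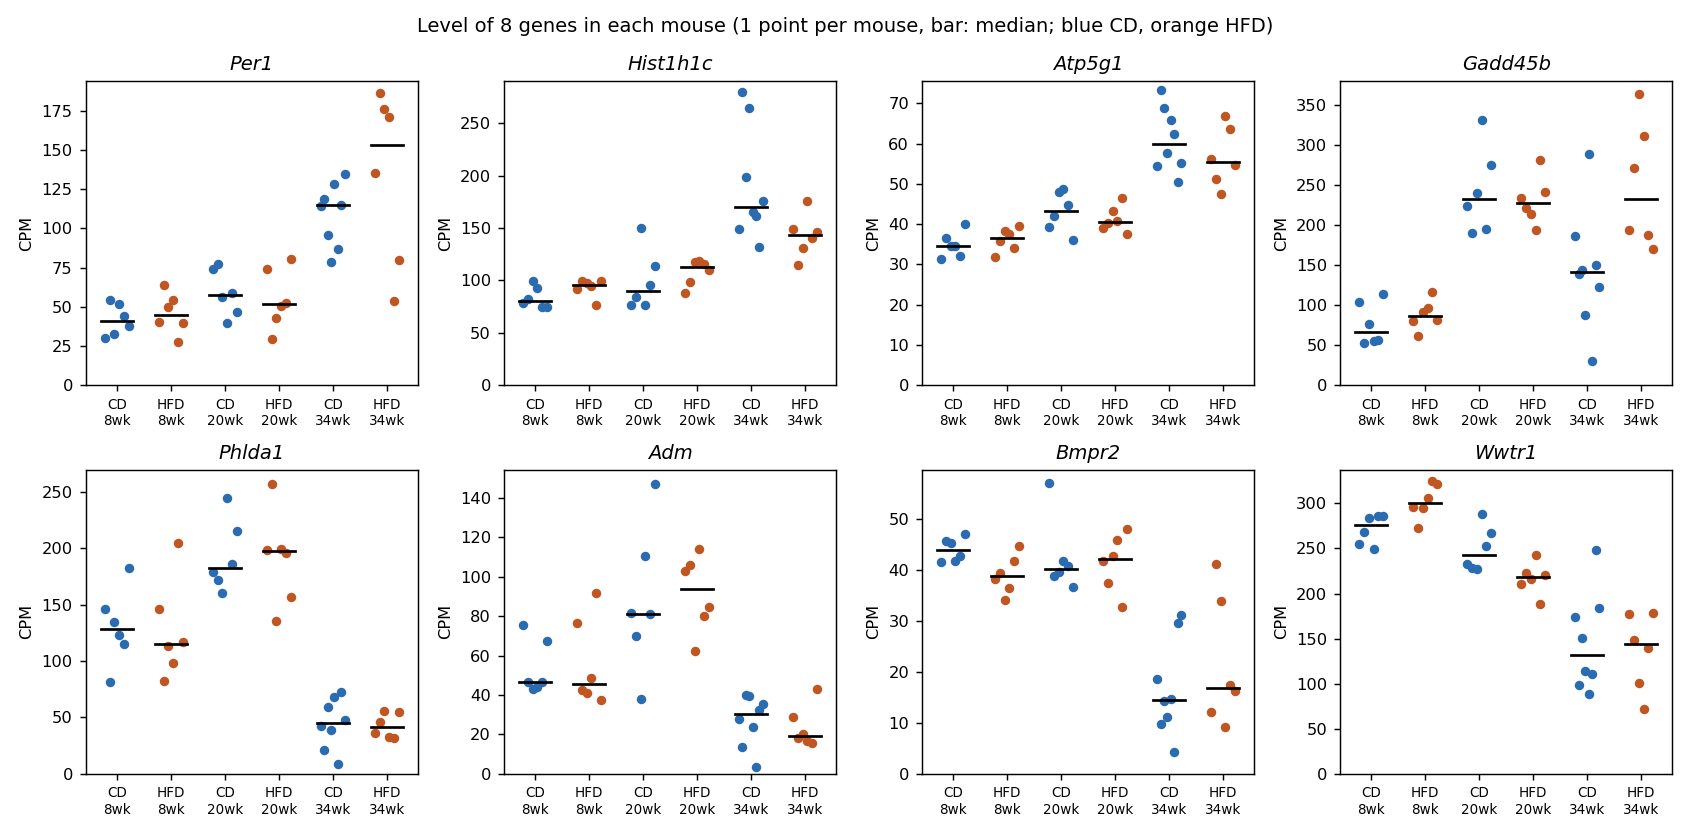
CPM of 4 rises (upper row) and 4 falls (lower row) in each of the 38 mice, by group, with the median as a bar, CD in blue and HFD in orange. Atp5g1 and Phlda1 separate both 34-week groups from the earlier groups of their diet, Gadd45b peaks in CD mice at 20 weeks, and in Bmpr2 2 mice per diet at 34 weeks stand above the rest of their group.

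Phlda1 (chr10:111506286-111508649), an intracellular protein induced by growth factors and stress, fell most in chow mice (-1.70). In CD mice Phlda1 ran from 81.4 to 182 CPM (median 128) at 8 weeks, from 159.9 to 244 (median 182) at 20 weeks and from 9.06 to 72.3 (median 44.8) at 34 weeks. In HFD mice Phlda1 ran from 82.2 to 204 CPM (median 115), 136 to 257 (median 197) and 31.97 to 55.3 (median 41.1) at the same times. Both 34-week groups lay below every mouse of the earlier groups of their diet, and the HFD difference was -2.14 ± 0.30 (SE, adjusted p = 1.19e-05), 4.39 times lower. Adm (chr7:110627657-110629820) encodes adrenomedullin, a peptide that dilates vessels. In CD mice Adm ran from 42.8 to 75.6 CPM (median 46.6) at 8 weeks, from 38.04 to 147 (median 81.2) at 20 weeks and from 3.30 to 39.7 (median 30.1) at 34 weeks. In HFD mice Adm ran from 37.5 to 91.7 CPM (median 45.6), 62.1 to 114 (median 93.9) and 15.9 to 43.1 (median 19.2) at the same times. The medians rose to 20 weeks before they fell, and at 34 weeks all HFD mice lay below all HFD 20wk mice while the CD mice overlapped with the lowest CD 20wk mouse. The HFD difference of -1.96 ± 0.37 (SE, adjusted p = 0.000334) corresponded to 3.89 times lower. Slc7a11 encodes the cystine and glutamate exchanger that feeds glutathione synthesis. In CD mice Slc7a11 ran from 1.63 to 35.2 CPM (median 3.13) at 8 weeks, from 7.22 to 20.5 (median 8.75) at 20 weeks and from 0.339 to 8.90 (median 2.36) at 34 weeks. In HFD mice Slc7a11 ran from 1.59 to 14.2 CPM (median 4.32), 4.47 to 17.1 (median 12.3) and 1.21 to 7.88 (median 3.19) at the same times. It too was highest at 20 weeks in medians, and its HFD difference was -1.40 ± 0.50 (SE, adjusted p = 0.0326), which was not called with edgeR or when any of 6 of the 12 HFD mice was left out. Its place in the list rested on 1 CD 8wk mouse at 35.2 CPM, without which the chow change was -0.23. The only other member whose chow change shrank by more than 1.5 times without 1 mouse was Map3k14, from -0.77 to -0.51 without CD 34wk replicate 6.

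Some of the falls encode receptors and signalling proteins. Bmpr2 (chr1:59764279-59878081), the type II receptor for bone morphogenetic proteins, fell by 1.54 on the log2 scale in chow mice. In CD mice Bmpr2 ran from 41.5 to 46.9 CPM (median 43.9) at 8 weeks, from 36.6 to 56.95 (median 40.2) at 20 weeks and from 4.32 to 31.2 (median 14.5) at 34 weeks. In HFD mice Bmpr2 ran from 34.04 to 44.7 CPM (median 38.7), 32.7 to 47.9 (median 42.1) and 9.08 to 41.04 (median 16.8) at the same times. All CD 34wk mice lay below all CD 8wk mice, while 2 HFD 34wk mice stayed in the range of HFD 20wk. The HFD difference was -1.08 ± 0.29 (SE, adjusted p = 0.00592). Acvr2a, a receptor for activins, fell by 0.49, adjusted p = 0.0121. A list of the TGF-beta, BMP and activin families holds Acvr2a but not Bmpr2. Of its 36 tested genes, 3 were called higher (8.33%, against 17.8% of all genes tested) and 7 lower (19.4%, against 12.5%). Wwtr1 encodes TAZ, a transcriptional partner regulated by the Hippo kinases. In CD mice Wwtr1 ran from 249 to 286 CPM (median 276) at 8 weeks, from 227 to 288 (median 243) at 20 weeks and from 88.6 to 248 (median 132) at 34 weeks. In HFD mice Wwtr1 ran from 273 to 325 CPM (median 301), 189 to 242 (median 218) and 72.3 to 178 (median 144) at the same times. Wwtr1 was lower in all 34-week mice than in any 8-week mouse of the same diet and, in HFD, than in any 20-week mouse (-0.73 ± 0.18 (SE, adjusted p = 0.00338)). In the list of 19 Notch, hedgehog and Hippo genes, 9 were called lower (47.4%, against 12.5% of all genes tested) and 1 higher (5.26%, against 17.8%). The median summed exon length of this list was 7297 bases, against 4641 over all genes tested.

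Aak1, a kinase of clathrin-coated vesicle formation, changed by -1.36 on chow. In CD mice Aak1 ran from 13.2 to 19.5 CPM (median 17.8) at 8 weeks, from 12.6 to 23.4 (median 15.4) at 20 weeks and from 2.88 to 15.2 (median 4.59) at 34 weeks. In HFD mice Aak1 ran from 13.6 to 15.98 CPM (median 14.1), 12.2 to 18.7 (median 18.1) and 3.24 to 16.7 (median 5.36) at the same times. The groups overlapped through 2 high mice in CD 34wk and 1 in HFD 34wk, and the HFD difference was -1.16 ± 0.29 (SE, adjusted p = 0.00313). Arhgap5, a GTPase-activating protein, fell by 0.45, adjusted p = 0.0498, Pkp2, a plaque protein of desmosomes, fell by 0.81, adjusted p = 0.00589, and Pdlim5, which binds actin filaments, fell by 0.45, adjusted p = 0.0443. Of 77 actin and focal adhesion genes, 1 was called higher (1.30%, against 17.8% of all genes tested) and 11 lower (14.3%, against 12.5%). Of 37 insulin and IGF signalling genes, 2 were called higher (5.41%) and 12 lower (32.4%). The median summed exon length of these 37 genes was 8665 bases, against 4641 over all genes tested. Crem, a cyclic AMP-responsive factor, differed by 0.01, adjusted p = 0.976. It was placed in a list of adenylyl cyclases and phosphodiesterases. Of the 27 tested genes of that list, 1 was called higher (3.70%) and 7 lower (25.9%).

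Ube3a encodes a ubiquitin ligase. In CD mice Ube3a ran from 68.3 to 79.2 CPM (median 75.5) at 8 weeks, from 56.8 to 69.1 (median 65.6) at 20 weeks and from 24.2 to 55.4 (median 34.7) at 34 weeks. In HFD mice Ube3a ran from 65.97 to 74.2 CPM (median 69.4), 52.6 to 63.04 (median 59.7) and 22.6 to 55.4 (median 42.5) at the same times. In both diets the 34-week mice lay below the 8-week mice, and HFD 34wk differed from HFD 20wk by -0.58 ± 0.16 (SE, adjusted p = 0.00721). With the trend on summed exon length removed from each mouse, a step described further on, the Ube3a difference was -0.17 (adjusted p = 0.108) and not called. The ligase Trim56 (-0.52, adjusted p = 0.00228) and the deubiquitinase Usp34 (-0.40, adjusted p = 0.0138) fell as well. In their list of 222 genes, 35 were called higher (15.8%, against 17.8% of all genes tested) and 28 lower (12.6%, against 12.5%). Bdp1, a subunit of the RNA polymerase III factor TFIIIB, fell by 0.82, adjusted p = 0.00175. Vps13b, a lipid transfer protein of the Golgi, fell by 0.60, adjusted p = 0.00965. Sec16a, which organises export sites of the endoplasmic reticulum, fell by 0.36, adjusted p = 0.0361. Of 202 vesicle traffic genes, 48 were called higher (23.8%) and 14 lower (6.93%). The motor protein Kif1b fell by 0.39, adjusted p = 0.0192, the chromatin remodelling subunit Smarcc2 fell by 0.56, adjusted p = 0.00438, the LysM protein Lysmd3 fell by 0.69, adjusted p = 0.02 and the membrane protein Lmbrd2 fell by 0.91, adjusted p = 0.0184. The differences of Tet3, a methylcytosine oxidase (-0.42, adjusted p = 0.157), Ttc28 (-0.45, adjusted p = 0.119), the mitochondrial carrier Slc25a30 (-0.42, adjusted p = 0.178), the lipid droplet protein Plin5 (-0.30, adjusted p = 0.342) and the calcium pump Atp2a2 (-0.18, adjusted p = 0.186) did not pass the test. Of 100 chromatin modifiers, 15 were called higher (15%) and 28 lower (28%). Of 173 solute carriers, 18 were called higher (10.4%) and 24 lower (13.9%).

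Hsp90aa1, the inducible cytosolic HSP90 chaperone, stood at the border of the rule. In CD mice Hsp90aa1 ran from 503 to 663 CPM (median 561) at 8 weeks, from 396 to 609 (median 496) at 20 weeks and from 254 to 421 (median 360.0) at 34 weeks. In HFD mice Hsp90aa1 ran from 419 to 658 CPM (median 516), 408 to 555 (median 474) and 339 to 413 (median 386) at the same times. CD 34wk lay below every CD 8wk mouse, and the HFD difference was -0.33 ± 0.12 (SE, adjusted p = 0.0334). Of 31 heat shock chaperones, 2 were called higher (6.45%, against 17.8% of all genes tested) and 6 lower (19.4%, against 12.5%). Il13ra2, the decoy receptor for interleukin 13, was singled out after its values were seen, as the fall that was higher in HFD 34wk than in HFD 8wk. In CD mice Il13ra2 ran from 2.22 to 12.6 CPM (median 4.08) at 8 weeks, from 2.35 to 9.66 (median 7.54) at 20 weeks and from 0.339 to 10.1 (median 2.29) at 34 weeks. In HFD mice Il13ra2 ran from 1.29 to 12.5 CPM (median 4.62), 4.21 to 8.47 (median 6.42) and 5.39 to 12.6 (median 8.98) at the same times. At 34 weeks HFD stood 1.42 above CD on the log2 scale, with overlap, and the difference from HFD 20wk was 0.36 ± 0.40 (SE, adjusted p = 0.522).

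In medians, the larger part of the change came after 20 weeks in both diets. At CD 20wk the median gene had covered 17.2% of its chow change in the rises and 26.9% in the falls, and 63 of 70 falls were already below CD 8wk. In 12 of 70 falls and 1 of 30 rises, most of the chow change was already covered at CD 20wk. In HFD mice the change from 8 to 20 weeks had a median of -0.002 on the log2 scale in the rises (15 higher, 15 lower). It was -0.12 in the falls (30 higher, 40 lower). Relative to HFD 8wk, HFD 34wk was higher in 27 of 30 rises and lower in 69 of 70 falls, at a median of 54.0% and 70% of the chow change. Of all 10343 genes tested, 5723 were higher and 4620 lower in that comparison. All HFD 34wk mice were apart from all HFD 8wk mice in that direction in 12 of 30 rises (16.4% of all genes tested) and 21 of 70 falls (7.67%). All CD 34wk mice were apart from all CD 8wk mice in 22 of 30 rises and 44 of 70 falls (14.6% of all genes tested were higher without overlap and 10% lower), which the rule favours. At 34 weeks the diets differed by less than 0.25 in 14 of 30 rises and 48 of 70 falls, with a median HFD minus CD difference of -0.24 and 0.12. In 1 rise, all HFD 34wk mice lay below all CD 34wk mice (0.986% of all genes tested). It was Acy1, an aminoacylase named here after its values were seen, at 3.06 to 5.75 CPM against 6.82 to 11.8, and no fall was apart at that time. None of these comparisons was tested, since the CD 8wk and CD 34wk mice chose the genes and the 8-week diet limit ties HFD 8wk to CD 8wk.

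Mice within the 34-week groups differed more than mice of other groups. The mean log2(CPM + 1) over the 70 falls was 5.88 to 6.42 in the 24 mice of 8 and 20 weeks, 4.91 to 5.95 in CD 34wk (median 5.39) and 5.04 to 5.95 in HFD 34wk (median 5.53). Over the 30 rises it was 4.55 to 4.87, 5.06 to 5.81 (median 5.46) and 4.93 to 5.39 (median 5.26) in the same order. Rises of all 34-week mice were above those of all earlier mice, and the falls were below them except in CD 34wk replicate 7 and HFD 34wk replicate 2, which overlapped with the lowest earlier mouse. For CD 34wk the rule favours this separation, since CD 34wk and CD 8wk chose the genes. The 8-week limit also holds HFD 8wk near CD 8wk.

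**Figure D3:**
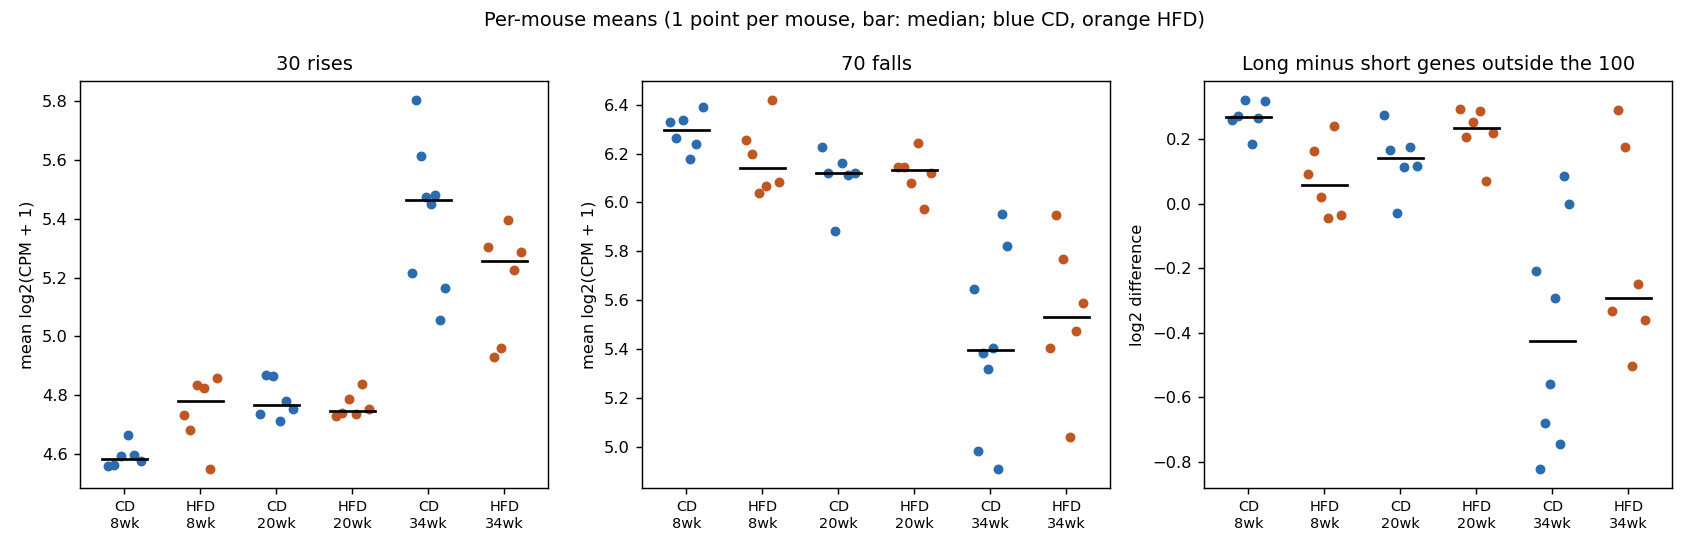
Mean log2(CPM + 1) over the rises and over the falls, and the difference between the longest and shortest of 5 length classes of the genes outside the 100, for each mouse by group with the median as a bar (CD blue, HFD orange). Mice at 34 weeks with the lowest falls, 4.91 and 4.98 in CD and 5.04 in HFD, are also among those with the lowest difference between long and short genes.

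The rises were mostly short and the falls mostly long in summed exon length, although the rule did not use length. The summed exon length had a median of 2133 bases in the rises and 8827 in the falls, against 4641 over all genes tested, and 27 of 30 rises were shorter and 61 of 70 falls longer than that median. The GC content of the longest transcript had a median of 53.7% in the rises, 44.9% in the falls and 49.6% over all genes tested. The same gradient ran through the genes outside the list, divided into 5 classes of about equal number by length. From the shortest to the longest class, the median chow change was 0.46, 0.27, 0.13, -0.02 and -0.21, and the median difference of HFD 34wk from HFD 20wk was 0.24, 0.15, 0.07, -0.02 and -0.16. From CD 8wk to CD 20wk it ran from 0.06 in the shortest to -0.07 in the longest class, and from HFD 8wk to HFD 20wk the opposite way, from -0.07 to 0.08. Against HFD 8wk, HFD 34wk ran from 0.17 to -0.09. The shortest class held 21 rises and 4 falls and the longest held no rise and 42 falls.

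**Figure D4:**
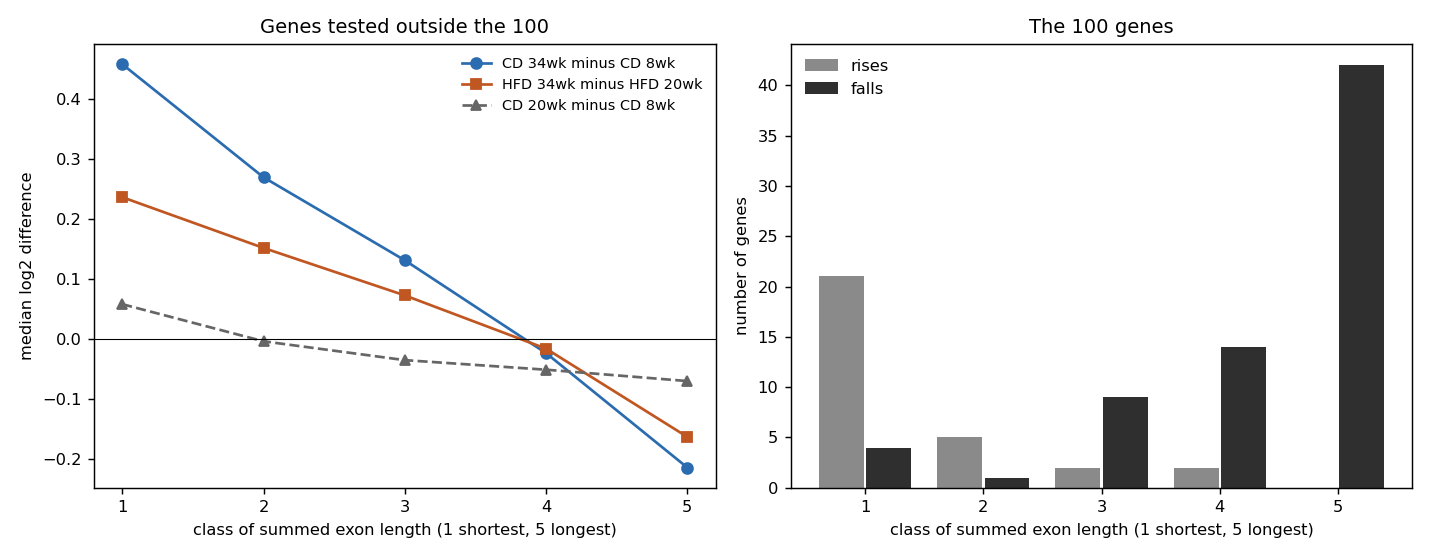
Median log2 difference of the genes tested outside the 100 in each of 5 classes of exon length (left, lines per comparison) and number of rises and falls per class (right, bars from 0). The median falls with length at 34 weeks in both diets, and 42 of the 70 falls are in the longest class.

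The length gradient also differed between mice. Its size in a mouse, the median of the longest class minus that of the shortest class, each relative to all mice, was -0.04 to 0.32 at 8 weeks, -0.03 to 0.29 at 20 weeks, -0.82 to 0.08 in CD 34wk and -0.50 to 0.29 in HFD 34wk. The 2 mice of CD 34wk with the highest falls (5.95 and 5.82) had gradients of 0.08 and -0.00155, and the 2 of HFD 34wk (5.95 and 5.77) had 0.29 and 0.18. With the length trend removed from each mouse, 12 of 30 rises were called higher (11.6% of all genes tested) and 34 of 70 falls lower (11.5%) in HFD 34wk against HFD 20wk, none was called against its chow direction, and the medians were 0.22 and -0.38. Length-adjusted differences stayed large in Phlda1 at -2.32 (adjusted p = 4.61e-06), Adm at -2.18 (adjusted p = 0.000154), Per1 at 1.21 (adjusted p = 0.000627) and Wwtr1 at -0.76 (adjusted p = 0.00227). Of the other genes called on the deposited values and named here, Hist1h1c (0.17, adjusted p = 0.372), Fau (0.30, adjusted p = 0.0636), Psenen (0.08, adjusted p = 0.439), Slc7a11 (-1.12, adjusted p = 0.086), Arhgap5 (-0.26, adjusted p = 0.143), Pdlim5 (-0.33, adjusted p = 0.0752) and Sec16a (-0.22, adjusted p = 0.103) were not called after this step. The length-adjusted differences were near 0 in Ankrd17 at 0.02 (adjusted p = 0.894), in Usp34 at -0.04 (adjusted p = 0.782) and in Kif1b at -0.04 (adjusted p = 0.845). Ankrd17 had the largest summed exon length of the members, 35542 bases, and is named for that. The rule applied to length-adjusted values chose 27 of the same 100 genes. All shares given for gene lists are of calls on the deposited values. The lists differed in exon length, and their shares were not counted again after the length step. RNA integrity was not given in the sources used here, and its part in these changes was not tested.

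Cell type markers were checked in the same libraries, and no member belongs to a marker list. The summed CPM of 12 adipocyte markers, none of them at 0 in all mice, had medians of 62197, 63040 and 47620 in CD and 43975, 30767 and 28024 in HFD at 8, 20 and 34 weeks, and none of the 12 was called between HFD 34wk and HFD 20wk. That of 15 macrophage markers ranged from 275 to 1640.5 in CD 8wk, 443 to 3522 in CD 20wk and 1233 to 13251 in CD 34wk. In HFD it ranged from 1161 to 3434, 4731 to 9161 and 5552 to 16670.1 at the same times. Of these 15 markers, 1 was called higher in HFD 34wk than in HFD 20wk. Of 10 lipid-associated macrophage markers none was called in that comparison. Of 10 tested progenitor and fibroblast markers 3 were called lower, where 12.5% of all genes tested were. The median change from CD 8wk to CD 34wk was 2.45 over the macrophage, 3.34 over the lipid-associated macrophage and 1.25 over the progenitor and fibroblast markers. Lists with few tested genes also rose: T and NK cells (2.15, 1 gene), proliferating cells (1.84, 3 genes) and neutrophils and mast cells (1.64, 2 genes). So did mesothelial cells (1.24, 3 genes) and B and plasma cells (1.12, 3 genes). The median was 0.18 over the endothelial, 0.18 over the mural and -0.20 over the adipocyte markers. It was 0.23 over 2 Schwann and nerve and 0.03 over 2 erythroid markers, and the 1 skeletal muscle marker tested changed by -1.05. The part of other cells in the chow changes was not tested. In bulk libraries, fewer cells of a type and less RNA per cell cannot be told apart.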

How the data were processed

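RNA-seq of perigonadal adipocytes from 38 male mice was analysed, as CPM that the authors deposited with the 3 technical replicates of each mouse merged. According to the methods and the submitters' processing notes, the authors aligned reads to mm10 (GRCm38) with STAR, counted reads over the union of exons with featureCounts, and computed TMM factors with edgeR. Each mouse's deposited CPM values sum to 1000000, which TMM-scaled values would not. All values (100%) were whole multiples of 1 read within 0.1 reads, which recovers the counts, and 1 read equals 0.0646 to 0.108 CPM. These limits cover counting error only.

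Values were taken as log2(CPM + 1), where low genes change less than in CPM. limma 3.58.1 in R 4.3.3 fitted the 6 groups together with a mean-variance trend, and the p-values for HFD 34wk against HFD 20wk were adjusted by Benjamini-Hochberg over 10343 genes. edgeR 4.0.16 on the recovered reads called 2908 genes against 3126 with limma. The step was tested on simulated data. Mice are replicates by their labels, and the closest of 103 pairs of mice within a group had a chi-square of 10.6 per degree of freedom. Columns name a group and a number only.

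The members, the gene lists and the tests were chosen with earlier results of these data known. Genes named are the 12 rises and 12 falls with the largest chow change, the called members with the largest HFD difference, up to 4 members of each role list, and those at the border of the rule, and predicted genes were passed over except as a role list. Lists without a member are not reported. Gene positions are from RefSeq on GRCm38. Exon lengths and GC content are from GENCODE vM21, of the same build, and had values for 99.9% of the genes tested and 100% of members. The length adjustment subtracted in each mouse a smoothed trend (span 0.3) of the log2 deviation on exon length, in Python 3.11.15 with statsmodels 0.14.6, and was added after the data were seen. Tried besides were pseudocounts of 0.5 and 2, other filters and scalings, edgeR, the 2 HFD groups alone, array weights, the replicate block and each mouse left out. The stromal vascular fraction was not analysed here. Values of 1 named gene are not reported here.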

Additional observations from a re-analysis of the deposited data

Results flagged for a closer look

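For the 17 genes whose values are given by group, the highest or lowest mouse of each of 102 groups of 6 or 8 mice was set against the gap to its nearest neighbour, on the log2 scale with Dixon's 95% limit. In 8 groups a single mouse stood apart, against about 1 in 20 by chance. Hist1h1c was at 76.8 CPM in 1 HFD 8wk mouse against 91.4 to 99.5 in the others. Fau was at 167 CPM in 1 CD 20wk mouse against 184 to 194. Cox5a was at 95.1 CPM in 1 HFD 20wk mouse against 109 to 117, and Eif3k at 102 CPM in another against 90.6 to 94.8. Adm was at 3.30 CPM in CD 34wk replicate 6 against 13.4 to 39.7, in a mouse that also had the lowest mean of the falls (4.91). Bmpr2 was at 57.0 CPM in 1 CD 20wk mouse against 36.6 to 41.7. Slc7a11 was at 35.2 CPM in CD 8wk replicate 6 against 1.63 to 4.05, and its chow change was -0.23 without that mouse and -0.77 with it. Il13ra2 was at 2.35 CPM in 1 CD 20wk mouse against 6.29 to 9.66. Causes of these values were not tested.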

How the results depend on the processing

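The number of genes called in HFD 34wk against HFD 20wk was 3126 (1837 higher, 1289 lower). It moved by over 1.5 times with array weights (5016, with 2885 higher and 2131 lower), and the number higher also with median-of-ratios scaling (1146) and in the fits adjusted for length (1203) or for length and GC (1180). In these 2 fits 12 rises were called in place of 20, and the median of the rises was 0.22 in both, against 0.42. With each of the 12 HFD mice left out the total was 2100 to 3435, with 1264 to 1948 higher and 836 to 1487 lower, lowest each time without HFD 34wk replicate 4. Members called were then 16 to 21 rises and 35 to 53 falls, none against chow, with medians of 0.36 to 0.47 and -0.60 to -0.43. Of the 69 called members, 52 stayed called under all 10 planned settings, 50 with each mouse left out, and 39 under these and both length fits. The rule chose 24 of the same 100 genes with TMM, 31 with median-of-ratios scaling, 27 with length-adjusted and 27 with length- and GC-adjusted values, 64 with a diet limit of 0.2 and 58 with 0.3, 92 with a pseudocount of 0.5, and 77 to 97 without 1 mouse (27 to 39 rises). A filter over the 32 mice other than HFD 34wk, added after the data were seen, gave the same 100. The reading as 100 rises and 100 falls gave 100 rises and holds all members. Differences near 0 changed sign for Crem (TMM -0.030, median-of-ratios -0.051, array weights -0.22, leave-one-out -0.12 to 0.105), Gadd45b (array weights -0.12, length -0.16, length and GC -0.14, leave-one-out -0.056 to 0.16), Etfb (length -0.017) and Pllp (array weights 0.062). The cause of these changes was not tested. The replicate numbers do not pair the mice: same-numbered HFD 20wk and HFD 34wk mice had correlations of -0.31 to 0.02 and none of 6 was closest to its own number. With the replicate block 3103 genes were called, 21 rises and 50 falls among them. A low gene is limited by depth, since 1 read is up to 0.108 CPM.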
